A study of Rattus norvegicus with 20 samples.

Results

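The protein components of the cytosolic ribosome were followed in rat liver through 50 of the 14217 genes measured. Members were taken by name: every gene with 1 platform symbol that begins with Rpl or Rps and a digit, together with Rplp0, Rplp1, Rplp2 and Rpsa, with 7 genes of the Rps6k kinases left out. Where a gene had several probe sets, the one with the highest mean over 20 arrays stood for it. Of the 50, 28 encode proteins of the large (60S) subunit, 13 encode proteins of the small (40S) subunit and 1, Rplp0, encodes the base of the stalk. Another 6 are paralogs of a core gene (Rpl3l, Rpl7l1, Rpl26l1, Rpl39l1, Rps4y2 and Rps27l), and 2 are pseudogene entries by their symbols (Rpl37-ps2 and Rps4x-ps1). Several core genes, among them Rplp1, Rplp2, Rpl10, Rps18 and Rps4x, had no probe set that names them alone and were not analysed here as single genes.

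Male Harlan Sprague-Dawley rats were given triphenyl phosphate, a flame retardant and plasticiser, in corn oil by oral gavage on 4 consecutive days, and liver was taken on day 5. The vehicle group received corn oil alone and held 5 arrays; the groups at 55, 110, 220, 440 and 881 mg/kg held 3 arrays each, and no group carried a genetic change. The labels give 440 mg/kg where the design text gives a value 1 unit higher, and the treatment text speaks of 3 rats a group although the vehicle group has 5 arrays. No label says that each array came from its own animal, so p-values measure only the spread between the samples, part of which may be technical. Values are log2 signals of bulk liver RNA, in which fewer cells of a type and less RNA per cell cannot be told apart. The 11 hepatocyte markers measured had signals of 12.58 to 15.34, near the top of the scale.

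One array stood apart. On 881 mg/kg replicate 2 the 3' end of the Gapdh control read 5.24 higher (log2) than its 5' end, against 0.81 to 1.64 on the other arrays, and the median correlation with the other arrays was 0.979, against 0.990 to 0.994. Results at 881 mg/kg are therefore given with and without it.

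Ribosomes are built in the nucleolus and nucleus from ribosomal RNA and one copy of nearly every ribosomal protein, so cells make these proteins in balanced amounts. Their mRNAs are among the most abundant in liver, and in mammals most begin with a terminal oligopyrimidine (TOP) tract, a run of C and T (U in the RNA) through which the kinase mTOR and the RNA-binding protein Larp1 control their translation. Control through this tract acts largely on how well an mRNA is translated, which a measurement of mRNA level does not read.

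The start-site sequences of some members are shown first, because a run of C and T near the start is common in this family. RefSeq's promoter table (build GRCr8) held 43 of the 50 members. Each window below runs 5′ to 3′ on the gene's strand, from 15 bases before the annotated start to 15 bases from it, and so ends in the first exon. Capitals mark runs of 6 or more consecutive C or T on that strand.
Rpl19: cgcgaccagcaagCTCTTTCCTTTCgctgc
Rplp0: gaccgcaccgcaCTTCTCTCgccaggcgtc
Rps15: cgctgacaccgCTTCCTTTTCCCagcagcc
Rps9: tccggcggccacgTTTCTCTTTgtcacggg
Rpl14: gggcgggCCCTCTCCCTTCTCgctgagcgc
Rpl18: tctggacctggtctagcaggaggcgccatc
Rpl26l1: aaatgtcatttccgggcctgcgcacacacc
Rpl7l1: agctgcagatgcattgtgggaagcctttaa
The windows of Rpl19 (chr10:83519049-83519078), Rpl14 (chr8:129163605-129163634), Rpl18 (chr1:105325255-105325284) and Rpl7l1 (chr9:21695703-21695732) lie on the plus strand. Those of Rplp0 (chr12:46718376-46718405), Rps15 (chr7:10068101-10068130), Rps9 (chr1:74430423-74430452) and Rpl26l1 (chr10:17029014-17029043) lie on the minus strand. Rpl19, Rplp0 and Rps15 show the usual form, a run at the start site itself. Rps9, Rpl14, Rpl18 and Rpl26l1 are shown because they were called at 881 mg/kg, and Rpl7l1 because its probe sets disagreed. A run of at least 6 was found in 32 of the 43 members (74.4%), in 30 of the 37 that are no paralog (81.1%) and in 2 of the 6 paralogs, against 28.3% of the 27457 genes in the table. A run counted wherever it lay in the window, also wholly before the annotated start, as in Rpsa. Such a run need not be part of the mRNA, so these are not shares of TOP mRNAs. A run in this window is a description of letters and was not tied to any measured change.

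Most members were among the brightest genes of the array. Of the 50, 38 had a mean signal of at least 12 on the log2 scale (12.23 to 14.35, where the highest value in the table was 15.36), and the other 12 lay under 10. The dim group held all 6 paralogs, both pseudogene entries and the core genes Rpl28 (4.41), Rpl30 (4.63), Rps13 (6.17) and Rpl39 (7.17). A signal depends on the probes as well as on the RNA, so levels were not ranked between genes. The vehicle arrays varied little: the SD of a bright member over the 5 arrays had a median of 0.07 and ran from 0.03 for Rpl11 to 0.19 for Rpl13a.

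The bright members varied together from array to array, also among arrays of one dose. With the mean of each dose group removed, the median Pearson correlation over the 20 arrays was 0.77 for the 703 pairs of bright members, and 91.0% of the pairs lay above 0. It was 0.81 without 881 mg/kg replicate 2. The 117855 pairs of the 486 other genes with a signal of at least 12 had a median of 0.02, and the 66 pairs of dim members also had 0.02. All pairs share the same arrays and normalization, so these values describe these arrays only. Over all 20 arrays Rpl18, Rps9, Rpl14 and Rps3 had the lowest median correlations with the other bright members, at -0.28, -0.03, 0.09 and 0.596. Rps16 came close to Rps3, at 0.599. Rpl18, Rps9, Rpl14 and Rps3 were also the 4 lowest members on 881 mg/kg replicate 2. That array is among the 20, so these are not separate observations. The correlation of each member without that array was not computed.

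**Figure D1:**
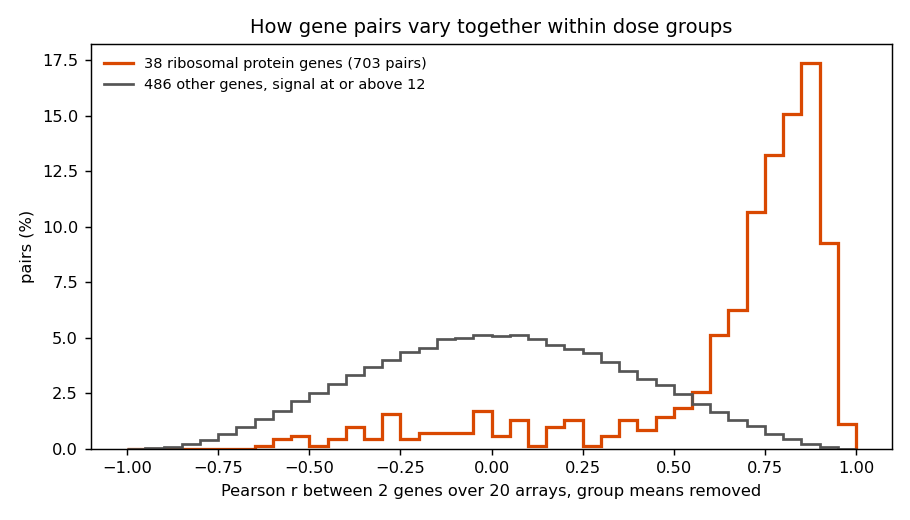
Share of gene pairs (%, vertical axis) by their Pearson correlation over the 20 arrays with dose-group means removed (horizontal axis), for 38 bright ribosomal protein genes (703 pairs, orange) and 486 other genes of similar signal (grey). The ribosomal protein pairs pile up at high values, with a median of 0.77, and the other pairs centre on 0.02.

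The size of this shared movement can be read from the median of the 38 bright members on each array, as a log2 difference from the vehicle mean. The 5 vehicle arrays stood at -0.10, 0.04, 0.07, 0.01 and -0.01. The 3 arrays at 55 mg/kg stood at -0.22, -0.07 and 0.08, so this group holds both the lowest and the highest array of the study. At 110 mg/kg the values were -0.21, -0.01 and -0.12. At 220 mg/kg they were -0.02, -0.03 and -0.08, and at 440 mg/kg they were -0.10, 0.03 and -0.03. At 881 mg/kg they were -0.06, 0.03 and -0.15. Every dosed group overlapped the vehicle range of -0.10 to 0.07. Replicate 1 was the lowest array in vehicle and at 55, 110 and 440 mg/kg, but not at 220 or 881 mg/kg. The labels do not say what the replicate number stands for. The subunits had like medians: on 55 mg/kg replicate 1, the lowest array, the 60S and the 40S members both had a median of -0.22.

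**Figure D2:**
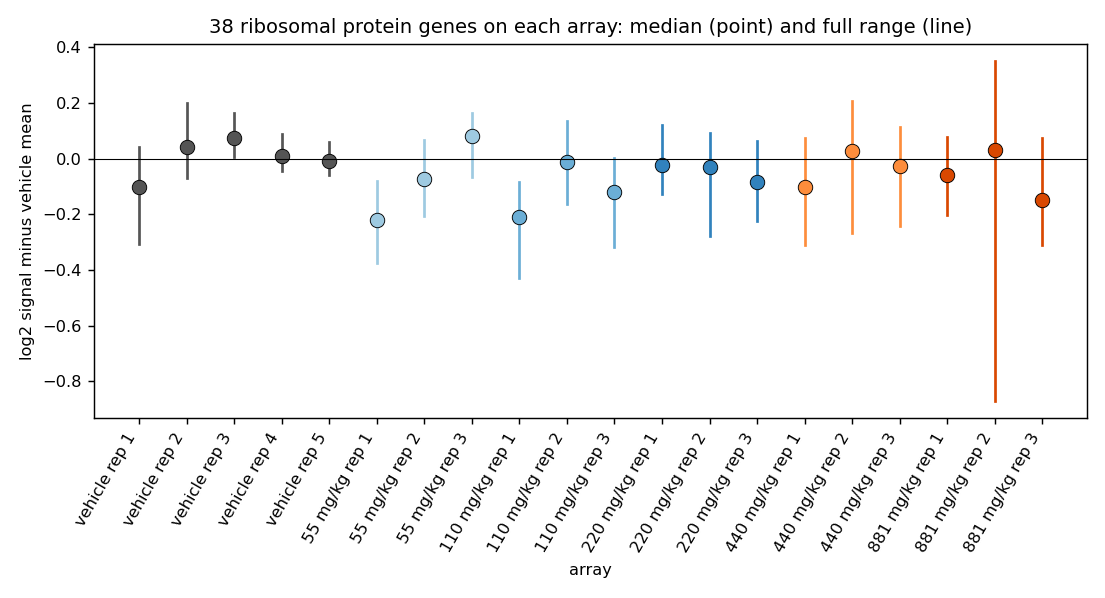
Each array's median (point) and full range (line) of 38 bright ribosomal protein genes, as log2 signal minus the vehicle mean, with the 20 arrays along the horizontal axis coloured by dose group. Medians run from -0.22 to 0.08 with no steady course over dose, and the range on 881 mg/kg replicate 2, from -0.87 to 0.35, is the widest.

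Against vehicle, no member passed the test at 55, 110, 220 or 440 mg/kg, and none differed between 881 and 440 mg/kg (limma, adjusted p under 0.05 over all genes). In the same fits 2.81%, 3.61%, 3.43% and 11.0% of all genes were called at these 4 doses, and 0.26% between 881 and 440 mg/kg. Members with an unadjusted p under 0.05 numbered 2, 4, 1 and 1 at these doses and 0 between the higher pair, where 15.9%, 16.7%, 16.6%, 25.6% and 10.6% of all genes had one. Of the other 486 bright genes, 1.85%, 3.91%, 4.73% and 17.3% were called at the 4 lower doses and 0.617% between the higher pair. The intervals were narrow: the 95% interval of the change lay within 1.5-fold in either direction for all 50 members at 55 and 110 mg/kg, for 49 at 220 mg/kg and for 48 at 440 mg/kg. For the 38 bright members it did so at each of these doses. Low signals are compressed, so a narrow interval of a dim member need not mean that its RNA was unchanged.

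The median member changed by -0.07 at 55, -0.11 at 110, -0.05 at 220 and -0.01 at 440 mg/kg, where the median of all genes lay between -0.0046 and 0.01. At 55 and at 110 mg/kg all 38 bright members had a change below 0, from -0.16 to -0.0003 and from -0.20 to -0.01. Among the other bright genes 44.0% and 52.5% lay below 0. The members move together and these comparisons share the vehicle arrays, so the 38 signs are not 38 separate observations. Without 55 mg/kg replicate 1 the median change at that dose was 0.0023, and without replicate 3 it was -0.14.

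Calls appeared at the highest dose, where 3 members fell and 2 rose. These are 5 of 50, where 19.5% of all genes and 28.8% of the other bright genes were called, 6.73% of all genes falling and 12.7% rising. Members with an unadjusted p under 0.05 numbered 7, where 33.4% of all genes had one. The members that fell were Rps9, Rpl14 and Rpl18, and those that rose were the dim paralog Rpl26l1 and the pseudogene entry Rpl37-ps2. None of the 5 was called without 881 mg/kg replicate 2. In that fit 0 of 50 members passed, 6 had an unadjusted p under 0.05, and 11.6% of all genes were called. None of the 5 was called either with the beta-actin 3' to 5' difference of each array as a covariate. This difference was 3.47 on 881 mg/kg replicate 2 and 1.67 to 2.72 on the other arrays. The covariate fit is therefore not independent of leaving that array out. Its limma adjusted p-values were 0.0511 for Rps9, 0.123 for Rpl14, 0.142 for Rpl18, 0.102 for Rpl26l1 and 0.0876 for Rpl37-ps2. That fit called 3 other members as lower, Rpl34 (-0.24), Rpl37a (-0.20) and Rps28 (-0.20). It called 16.8% of all genes, 897 of 14217 as lower, so these 3 of 50 are near the share of all genes. The median member change was -0.05 with the array and -0.10 without it. With each array centred on its median 1 member fell and 2 rose, the median change was -0.0029, and the called genes of the whole array split into 76.6% that rose, against 65.4% in the fit as deposited.

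**Figure D3:**
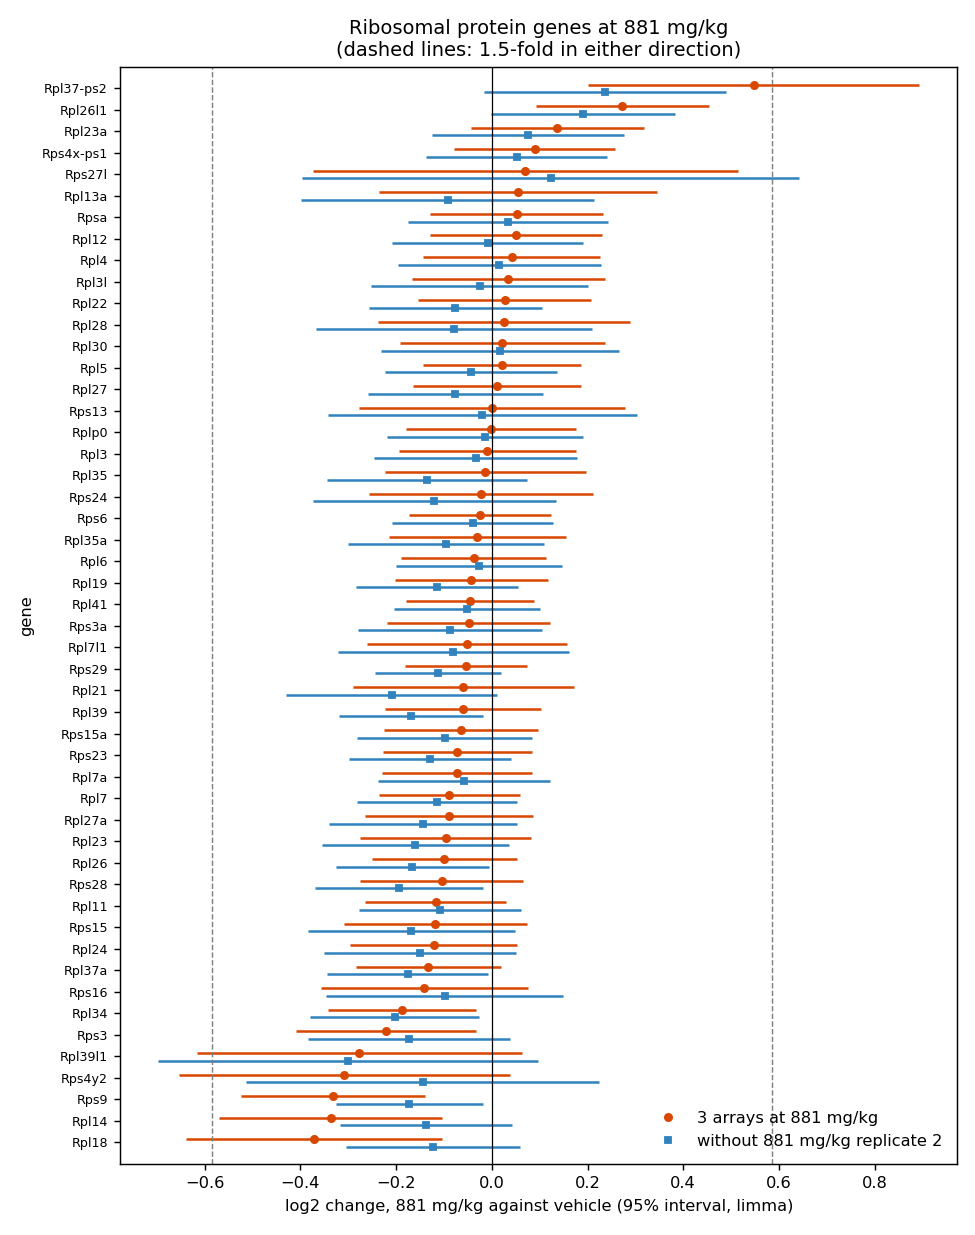
Log2 change at 881 mg/kg against vehicle (horizontal axis) with its 95% interval for each of the 50 genes (vertical axis), over all 3 dosed arrays (orange) and without 881 mg/kg replicate 2 (blue). With all 3 arrays 46 of the 50 orange intervals lie inside the dashed 1.5-fold lines, and the changes of Rpl18, Rpl14, Rps9, Rpl26l1 and Rpl37-ps2 shrink in blue.

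Rps9, a protein of the 40S body that binds ribosomal RNA early in assembly, had the smallest p of the family at 881 mg/kg. Its signal was 13.17, 13.06, 13.14, 13.15 and 13.13 on the vehicle arrays and 12.96, 12.48 and 12.96 at 881 mg/kg. The dosed arrays all lay below the vehicle arrays, with replicate 2 far below the other two. The change was -0.33 ± 0.09 (SE, limma adjusted p = 0.0164), or -0.17 with an adjusted p of 0.141 without that array. The lower doses gave group means of 13.06, 13.01, 12.99 and 12.98 from 55 to 440 mg/kg, with changes of -0.07, -0.12, -0.14 and -0.15 that did not pass. All arrays at 110, 220, 440 and 881 mg/kg lay below the lowest vehicle array, while 55 mg/kg replicate 3, at 13.22, lay above the highest.

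Rpl18, a 60S protein, read 12.80, 12.70, 12.78, 12.74 and 12.79 in vehicle and 12.67, 11.89 and 12.61 at 881 mg/kg. The groups did not overlap, and replicate 2 lay far below the other arrays. The change was -0.37 ± 0.13 (SE, limma adjusted p = 0.0470), and -0.12 with an adjusted p of 0.401 without that array. Rpl14, another 60S protein, read 12.28, 12.29, 12.40, 12.40 and 12.36 in vehicle and 12.28, 11.61 and 12.13 at 881 mg/kg. Here replicate 1 lay inside the vehicle range. Its change was -0.34 ± 0.11 (limma adjusted p = 0.0395), and -0.14 with an adjusted p of 0.336 without replicate 2.

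These 3 genes were the lowest of the bright members on 881 mg/kg replicate 2, at -0.87 for Rpl18, -0.74 for Rpl14 and -0.65 for Rps9 relative to vehicle, and the next, Rps3, was at -0.32. On the same array Rpl13a stood at 0.35 and Rpl23a at 0.26. The SD over the 38 bright members was 0.26 on this array and 0.03 to 0.09 on the other 19, so the family spread out there as on no other array. The 3' to 5' difference of the Gapdh control is high on the same array; its part in these members' values was not tested.

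Rpl26l1, a close copy of Rpl26, had signals of 6.52, 6.50, 6.66, 6.48 and 6.61 in vehicle and 6.80, 6.99 and 6.69 at 881 mg/kg. All dosed arrays lay above the vehicle arrays. The change was 0.27 ± 0.09 (SE, limma adjusted p = 0.0329), and 0.19 with an adjusted p of 0.200 without replicate 2. Rpl37-ps2 read 6.16, 6.17, 6.03, 6.06 and 6.22 in vehicle, 6.58, 6.51 and 6.35 at 440 mg/kg and 6.34, 7.30 and 6.38 at 881 mg/kg. Both higher doses lay above all vehicle arrays. The change at the highest dose was 0.55 ± 0.17 (limma adjusted p = 0.0255), and 0.24 with an adjusted p of 0.228 without replicate 2. At 440 mg/kg it was 0.35 ± 0.17 (limma adjusted p = 0.187), and in the fit without 881 mg/kg replicate 2 the same change had an SE of 0.11 and was called (0.0319). A probe set for a pseudogene entry may also take RNA of the parent gene, so its identity is uncertain.

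**Figure D4:**
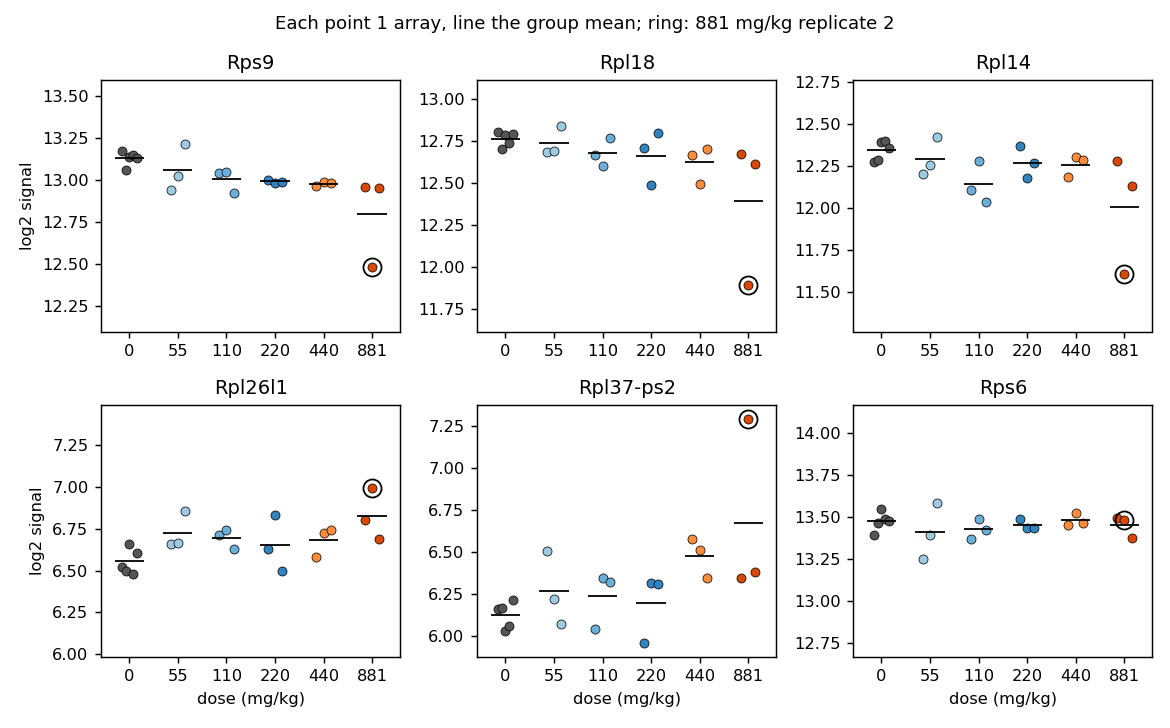
Log2 signal by dose (mg/kg) of the 5 genes called at 881 mg/kg and, for comparison, Rps6; each point is 1 array, each line a group mean, and the ring marks 881 mg/kg replicate 2. The ringed array is the lowest point for Rps9, Rpl18 and Rpl14 and the highest for Rpl26l1 and Rpl37-ps2, while it lies among the vehicle arrays for Rps6.

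Over dose steps from vehicle to 881 mg/kg, 1 member rose and 2 fell, where 21.7% of all genes and 33.3% of the other bright genes were called, 12.9% of all genes rising and 8.81% falling. Members with an unadjusted p under 0.05 numbered 7, where 34.5% of all genes had one. Rps9 changed by -0.055 per step (limma adjusted p = 0.0117), Rpl18 by -0.061 (0.0412) and Rpl37-ps2 by 0.093 (0.0206). Without 881 mg/kg replicate 2 the trend of Rps9 was -0.035 per step and was still called (limma adjusted p = 0.0300), while Rpl18 (0.114) and Rpl37-ps2 (0.0610) were not. Rps9 was thus called in the trend with and without that array. With the beta-actin covariate its limma adjusted p was 0.0540, and that fit called Rpl34, Rps15 and Rps28 as lower instead. With the covariate and without that array, a fit chosen after seeing the data, Rps9 was called (limma adjusted p = 0.0357), as were Rpl34 and Rps15.

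Members with roles outside the ribosome or in its regulation were not called at any dose. Rplp0, the stalk base that recruits elongation factors and a common reference gene, had group means of 13.52 in vehicle and 13.51, 13.47, 13.58, 13.60 and 13.52 from 55 to 881 mg/kg. Rps6, the 40S protein that S6 kinase phosphorylates, had means of 13.47 in vehicle and 13.41, 13.43, 13.45, 13.48 and 13.45. Neither passed the test in any comparison. The 95% interval of the change at 881 mg/kg was -0.18 to 0.18 for Rplp0 and -0.17 to 0.12 for Rps6.

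Rpl5 and Rpl11 bind Mdm2 together with 5S ribosomal RNA when assembly stalls, which links the ribosome to p53. Rpl5 changed by 0.02 at 881 mg/kg (95% interval -0.14 to 0.19). Rpl11 read 13.38, 13.43, 13.43, 13.38 and 13.40 in vehicle and 13.36, 13.27 and 13.23 at 881 mg/kg. The dosed arrays lay just below the vehicle arrays, and the change of -0.12 ± 0.07 (SE, limma adjusted p = 0.258) did not pass.

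Rps3, which lines the mRNA entry of the 40S subunit and also takes part in DNA repair, changed by -0.22 ± 0.09 at 881 mg/kg (SE, limma adjusted p = 0.0898). Rpsa, the laminin-receptor precursor, changed by 0.05, and Rpl13a, known for silencing of inflammatory mRNAs, by 0.06, with the widest vehicle spread of the bright members. Rpl34 was low on all 3 arrays at this dose (13.00, 13.00 and 12.90, against 13.08 to 13.28 in vehicle). Its change was -0.19 ± 0.07 (SE, limma adjusted p = 0.0827), and -0.20 (0.132) without replicate 2, so it kept its size without that array but was not called in either of these fits. With the beta-actin covariate it was called (-0.24, limma adjusted p = 0.0271).

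Separation of the groups gave a second view of each dose. Members whose arrays all lay below all vehicle arrays numbered 2 at 55 (Rpl39 and Rps13), 2 at 110 (Rpl39 and Rps9), 1 at 220 (Rps9), 2 at 440 (Rpl18 and Rps9) and 4 at 881 mg/kg (Rpl11, Rpl18, Rpl34 and Rps9). Of all genes 4.26%, 5.28%, 5.02%, 8.40% and 8.31% did so. Members above all vehicle arrays numbered 0, 0, 0, 1 (Rpl37-ps2) and 2 (Rpl26l1 and Rpl37-ps2), where 9.33%, 7.62%, 7.95%, 12.8% and 13.4% of all genes were. Between 881 and 440 mg/kg 4 members lay below (Rpl34, Rpl41, Rplp0 and Rps9) and 0 above, against 5.56% and 7.59% of all genes. Rps9 is the member listed most often, at 4 of the 5 doses, and the comparisons share the vehicle arrays.

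Of the 6 paralogs, Rpl26l1, Rpl3l, Rpl39l1 and Rpl7l1 had a core partner among the members. With the highest dose Rpl26l1 changed by 0.27 and Rpl26 by -0.10, Rpl3l, the form of striated muscle, by 0.03 and Rpl3 by -0.01, Rpl39l1 by -0.28 and Rpl39 by -0.06, and Rpl7l1 by -0.05 and Rpl7 by -0.09. Of these only the change of Rpl26l1 was called, and the differences between partners were not tested. Rps27l, a p53-responsive form, varied most within groups, from 7.67 to 8.64 at 110 mg/kg alone, and changed by 0.07 with a 95% interval of -0.37 to 0.52. Rps4y2 changed by -0.31 (limma adjusted p = 0.201).

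Rpl7l1, a nucleolar relative of Rpl7, gave different answers from its 2 probe sets. The one that represents it (mean signal 9.89) had group means of 10.05 in vehicle, 9.78, 9.74 and 9.81 at the lower doses, 9.89 at 440 mg/kg and 10.00 at 881 mg/kg. Its changes of -0.27, -0.30 and -0.23 at 55, 110 and 220 mg/kg were not called (limma adjusted p = 0.179, 0.109 and 0.242). Rpl7 changed by -0.10, -0.16 and -0.02 at these doses, also not called. Without vehicle replicate 1 the change at 110 mg/kg was -0.36 and was called (limma adjusted p = 0.0430), and with the beta-actin covariate it was -0.32 and was called (0.0425). The second probe set (mean signal 9.56), tested among all probe sets, changed by -0.36, -0.37, -0.40 and -0.35 from 55 to 440 mg/kg, none called, and fell by 0.50 at 881 mg/kg (limma adjusted p = 0.00895). Without 881 mg/kg replicate 2 that fall was 0.28 and did not pass (0.0651). For the other 5 members with several probe sets, no further probe set was called. A dimmer one of Rps24 (mean signal 6.31) changed by 0.41 at 881 mg/kg, where the chosen one changed by -0.02, and that of Rpl14, with a mean signal of 5.51, changed by 0.0024 at 881 mg/kg.

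A further 36 probe sets carry a symbol that begins like a ribosomal protein name together with other symbols, and 33 of them had a signal of at least 12. The other symbols were not examined, and the Rps6k kinases were not left out by name here. They can name no single gene. In a fit over all 31042 probe sets none was called from 55 to 440 mg/kg, where 1.34%, 1.91%, 1.7% and 6.08% of all probe sets were. Then 2 fell and 0 rose at 881 mg/kg, where 12.5% of all probe sets were called, and without replicate 2 none was called, where 6.72% were. Their median change was -0.08 with that array and -0.12 without it.

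Genes outside the family with the most similar course over the 20 arrays were ranked by Pearson correlation with the per-array median of the members. Rack1, a 40S protein that the naming rule does not take, came first with r = 0.92. Cct5, a chaperonin subunit, followed with 0.87, then Eef1b2, an elongation factor subunit, with 0.83, the entry LOC100909739 with 0.80 and Mrto4, a factor of 60S assembly, with 0.79. Rack1 read 12.67 to 12.85 in vehicle and 12.81, 12.90 and 12.71 at 881 mg/kg, and changed by 0.02 ± 0.08 (SE, limma adjusted p = 0.904).

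Among the genes for factors that build ribosomes, several fell at the lower doses. Of 61 ribosome biogenesis genes measured, 9 fell at 55, 11 at 110, 4 at 220, 4 at 440 and 2 at 881 mg/kg, and 0 rose at any dose. Of all genes 0.879%, 1.24%, 1.18%, 4.28% and 6.73% fell, so the counts at 440 and 881 mg/kg are near or below the share of all genes. Without 881 mg/kg replicate 2 the counts that fell were 12, 15, 10, 4 and 4, where 1.30%, 1.74%, 1.72%, 5.29% and 3.93% of all genes fell. Their median changes were -0.24, -0.28, -0.18, -0.14 and -0.09 with that array, and the last was -0.18 without it. The vehicle arrays themselves differed widely in this list, with medians of -0.28, -0.05, 0.29, 0.11 and -0.07 around their own mean. Dosed arrays lay between -0.37 and -0.17 at 55, -0.37 and -0.21 at 110, -0.27 and -0.13 at 220, -0.20 and 0.01 at 440 and -0.21 and 0.06 at 881 mg/kg, so every dosed group overlapped the vehicle range. Without vehicle replicate 1, the lowest, the counts that fell were 12, 19, 9, 7 and 6, and without vehicle replicate 3, the highest, they were 6, 6, 2, 1 and 2. With any 1 array left out they ran from 3 to 12 at 55, 2 to 19 at 110, 2 to 10 at 220, 1 to 7 at 440 and 1 to 6 at 881 mg/kg. The lowest counts at 55 and 110 mg/kg came without replicate 1 of those doses. Nop58, a core protein of box C/D particles that guide ribosomal RNA methylation, read 9.67, 10.17, 10.57, 10.24 and 9.72 in vehicle and 8.75, 9.23 and 9.12 at 110 mg/kg. The groups did not overlap, and the change was -1.04 ± 0.23 (SE, limma adjusted p = 0.0139). At the same dose Tsr1, needed for 40S maturation, changed by -1.01 ± 0.18 (0.00425), Gar1 of the pseudouridylation particles by -0.96 ± 0.22 (0.0195) and Nop56 by -0.71 ± 0.16 (0.0203). Ddx10, a helicase of early assembly, fell at all 5 doses, by 0.37, 0.41, 0.43, 0.50 and 0.25, though at 881 mg/kg not without replicate 2 (limma adjusted p = 0.0685). The difference between these genes and the ribosomal proteins was not tested.

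**Figure D5:**
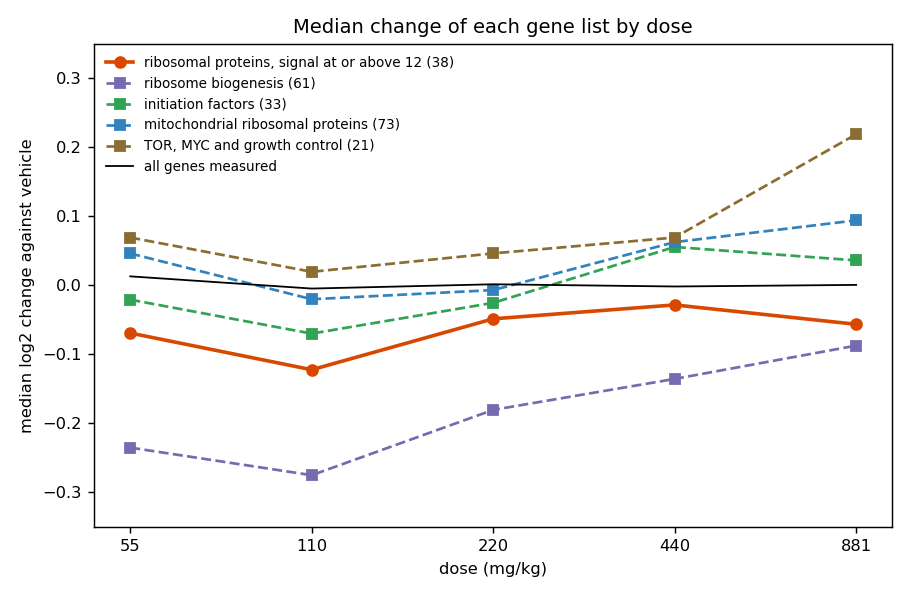
Median log2 change against vehicle (vertical axis) by dose in mg/kg (horizontal axis) for the 38 bright ribosomal proteins, 4 other gene lists with the number measured, and all genes. Among the lists drawn (ribosome biogenesis, initiation factors, mitochondrial ribosomal proteins, and TOR, MYC and growth control), biogenesis genes lie lowest at each dose, from -0.28 at 110 mg/kg to -0.09 at 881 mg/kg. The ribosomal proteins stay between -0.12 and -0.03, and all doses share the vehicle arrays. The values drawn at 881 mg/kg include replicate 2. Without it the medians at that dose were -0.18 for biogenesis genes and -0.11 for the ribosomal proteins.

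Translation factors, whose mRNAs in part carry the same tract, gave few calls. Of 33 initiation factors, 1 rose and 2 fell at 881 mg/kg, where 12.7% and 6.73% of all genes did: Eif2a (0.47), Eif1b (-0.49) and Eif2b4, a subunit of the exchange factor for eIF2 (-0.42, limma adjusted p = 0.000956). Without replicate 2 only Eif2b4 of these 3 was called (-0.45, limma adjusted p = 0.00256). In that fit 1 other initiation factor rose, where 7.62% of all genes rose. None of 10 elongation and termination factors was called at 881 mg/kg, where Eef1a1 changed by 0.02 and Eef2 by -0.19. At 55 mg/kg the initiation factor Eif1a fell (-0.73, limma adjusted p = 0.0264). Eef1e1, of the elongation list, fell at 55 (-0.54, 0.0455) and 110 mg/kg (-0.54, 0.0376). Of all genes 0.879% and 1.24% fell at these doses. At 440 mg/kg 1 initiation factor fell, where 4.28% of all genes did. The list of TOP mRNAs had 15 genes measured, of which 10 are translation factors already counted. Of the other 5 (Gas5, Hnrnpa1, Naca, Nap1l1 and Vim), Nap1l1, a histone chaperone, rose at 881 mg/kg (0.59 ± 0.09, limma adjusted p = 0.000233) and 0 fell. Of 11 genes of the RNA polymerase I machinery, which makes ribosomal RNA, Polr1b fell at 440 mg/kg (-0.49, limma adjusted p = 0.0376) and Polr1d rose at 881 mg/kg (0.32, 0.0381), the latter not without replicate 2. Without that array 0 of the 11 rose and 1 fell at 881 mg/kg, where 3.93% of all genes fell. The list median at that dose was -0.106 with the array and -0.265 without it.

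Several regulators of ribosome production rose. Myc, a transcription factor that drives ribosome production, read 6.78, 6.83, 7.33, 7.25 and 7.93 in vehicle and 8.49, 9.66 and 9.99 at 881 mg/kg. The groups did not overlap, and Myc rose by 2.16 ± 0.34 (SE, limma adjusted p = 0.000281), or by 2.02 without replicate 2 (0.00269). It also rose at 110 mg/kg (1.47, limma adjusted p = 0.0214), where no ribosomal protein gene rose. At 55 and 220 mg/kg Myc was not called, so its calls did not follow dose steadily. Of 21 genes of TOR, MYC and growth control, 7 rose and 0 fell at 881 mg/kg, where 12.7% of all genes rose, and 5 rose without replicate 2, where 7.62% did. Ddit4, an inhibitor of TOR complex 1, rose by 1.36 (limma adjusted p = 0.0253). Eif4ebp1, an inhibitor of translation initiation that this complex controls, rose by 0.35 (0.0262), and Mxd4, a MYC antagonist, by 0.40 (0.00120). Ddit4, Eif4ebp1 and Mxd4 also rose at 220 mg/kg, by 2.35, 0.53 and 0.31 (limma adjusted p = 0.00361, 0.0100 and 0.0276). There 320 of all 14217 genes rose. At 881 mg/kg the changes of these 3 genes are given only with replicate 2. Mtor itself changed by 0.38 with replicate 2 (limma adjusted p = 0.0185) and by 0.21 without it (0.165), and Larp1 by 0.37, which did not pass (0.0922).

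The ribosome of mitochondria is encoded by other genes, and 73 of them were measured. Of these 73, 11 rose and 0 fell at 881 mg/kg, with a median change of 0.09, where 12.7% of all genes rose and 6.73% fell. Without replicate 2, 5 rose and 1 fell, where 7.62% and 3.93% of all genes did. The share that rose is thus near that of all genes. Mrps12 rose by 0.38 and Mrpl50 by 0.34 at 881 mg/kg, and both were called without that array too (limma adjusted p = 0.0188 and 0.00851).

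Markers of other liver cell types fell at the same dose. Of 10 Kupffer cell and macrophage markers 8 fell at 881 mg/kg, of 11 stellate cell markers 8, of 8 endothelial markers 3, of 10 lymphocyte markers 3 and of 6 blood cell markers 2, and none of these rose, where 6.73% of all genes fell. Without replicate 2 the counts were 4, 3, 1, 1 and 2, where 3.93% fell. At 440 mg/kg the counts that fell in the same lists were 3, 6, 4, 1 and 0, where 4.28% of all genes fell. The mean signal of each list at 881 mg/kg and in vehicle was 9.21 to 9.72 against 9.91 to 10.23 for Kupffer cells, 7.28 to 7.72 against 7.75 to 8.21 for stellate cells and 8.37 to 8.93 against 8.89 to 9.16 for endothelial cells. For lymphocytes it was 5.86 to 6.02 against 6.15 to 6.25, and for blood cells 6.55 to 7.27 against 7.35 to 7.90. No marker gene had a mean signal under 4.23. Of 11 hepatocyte markers 1 rose and 4 fell (1 and 1 without replicate 2), and of 6 bile duct markers 1 rose. The part of these shifts in the values of the ribosomal protein genes was not tested.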

How the data were processed

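Liver RNA was measured on 20 Affymetrix arrays in 6 dose groups taken from the sample titles. The deposited values are log2 signals per probe set, made by the authors with RMA, per the submitters' processing notes, whose version is not given in the sources used here. RMA normalizes across arrays, so a change in total RNA is not seen, and low signals are compressed. Of 31099 probe sets, 57 controls were set aside; the platform annotation gave 20826 of the rest 1 symbol, 436 several and 9780 none, and 48 of the 50 members matched RefSeq by gene ID. Depth does not apply to arrays; their number limits precision.

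One limma 3.58.1 model (R 4.3.3) of 6 group means was fitted to 14217 genes, with two-sided contrasts, Benjamini-Hochberg adjustment over all genes and calls at an adjusted p under 0.05; the trend used dose steps as 1 term. The script was checked on simulated data. Python 3.11.15 made tables and figures. Bright means a mean signal of at least 12. Correlations are descriptions.

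The rule for named genes took called members (at most 10 each way), the stalk proteins, Rpsa, Rps6, Rpl5, Rpl11, Rps3, Rpl13a, Rps18, Rpl10, paralogs with partners, entries that are no ribosomal protein, members whose probe sets disagree, up to 4 called genes of each list, a few regulators and translation genes, and the 5 genes most like the family. Rpl34, Rpl41, Rpl23a, Rps13, Rpl28, Rpl30, Rpl37a, Rps28, Rps15, the start-site examples and biogenesis genes named at lower doses were chosen after their values were seen. The members and lists were chosen with earlier results of these data known. Alternatives were probe sets averaged, the most variable probe set, centred arrays, only the groups compared, a trended robust prior, genes under a mean of 6 left out, a replicate block, a beta-actin covariate and each array left out. Added after seeing the data were the beta-actin covariate without 881 mg/kg replicate 2, the shared probe sets and the mitochondrial list.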

Additional observations from a re-analysis of the deposited data

Results flagged for a closer look

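Rpsa on vehicle replicate 1 lay apart from the other vehicle arrays, at 13.09 against 13.27 to 13.34. The gap was 0.717 of the group's range, above the critical value of 0.71 for 5 values. It was the 1 value of this kind among 23 named members tested, and chance gives about 1 in 20. Most bright ribosomal protein genes were low on this array, with a median of -0.10.

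A control probe set for 5S ribosomal RNA, which belongs to none of the comparisons, read 9.85 on 440 mg/kg replicate 2, above the 7.20 to 8.09 of the vehicle arrays. It was also above that range on 220 mg/kg replicate 2 (9.06), 110 mg/kg replicate 2 (8.65), 881 mg/kg replicate 2 (8.39) and 55 mg/kg replicate 1 (8.13). Replicate 2 was the highest array of its group at 110, 220, 440 and 881 mg/kg, but not at 55 mg/kg or in vehicle. On 440 mg/kg replicate 2 the bright ribosomal protein genes had a median of 0.03 relative to vehicle.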

How the results depend on the processing

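No direction that had passed the test reversed under any alternative run. Calls at 881 mg/kg were the least stable: 2 members rose and 3 fell with all arrays, 0 and 0 when only the groups compared were fitted, 1 fell with centred arrays, 1 rose with the replicate block, and 0 rose with the beta-actin covariate, which moved the median change to -0.12 and called 3 as lower (Rpl34, Rpl37a and Rps28), none of them among the 3 called without it. In the beta-actin fit at 881 mg/kg 16.8% of all genes were called, 897 of 14217 as lower. Rpl7l1 was called as lower in place of Rpl18 with the most variable probe set and in place of Rpl14 with probe sets averaged. Leaving out 1 array at a time gave 0 to 2 that rose and 0 to 4 that fell; 0 and 0 came from leaving out 881 mg/kg replicate 2. At 110 mg/kg 1 fell (Rpl7l1) with the beta-actin covariate and 0 or 1 with an array left out, and at 440 mg/kg 1 rose (Rpl37-ps2) when only the groups compared were fitted and 0 or 1 with an array left out. The median change at 55 mg/kg ran from -0.14 to 0.0023. For the trend, 2 rose and 1 fell with centred arrays, 0 rose and 3 others fell (Rpl34, Rps15 and Rps28) with the beta-actin covariate, and 0 to 2 rose and 1 or 2 fell with an array left out. An alternative chosen after seeing the data used the beta-actin covariate without 881 mg/kg replicate 2. There 1 fell at 110 mg/kg, 1 rose and 1 fell at 440 mg/kg, and 0 rose and 0 fell at 881 mg/kg. For its trend 0 rose, with a median of -0.0154 per step. Rpl34, Rps15 and Rps9 fell in that trend (limma adjusted p = 0.0445, 0.0468 and 0.0357). The labels do not say what a shared replicate number means. Over 45 same-numbered pairs in different groups the deviations correlated at -0.12 to 0.35 (median 0.14, against -0.05 for 120 other pairs). Of 18 arrays, 15 correlated best with an array of their own number. Arrays may thus differ by replicate number as well as by dose, a hint from the data and not the design. Changes of a few percent are within the standard error of a member, 0.09 (log2) at the median.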
